A study of Rattus norvegicus with 16 samples.

Results

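Heat shock proteins and their partner chaperones were examined in the left ventricle of 16 male rats measured on Affymetrix Rat 230A arrays. The members were chosen by gene name: probe sets that the platform annotation ties to 1 gene, whose symbol begins with Hspa, Hspb, Hspc, Hspd, Hspe, Hsph, Hsp90 or Dnaj, or with Cct and a digit, or is Stip1, Cdc37, Bag3, Hsf1, Hsf2 or Tcp1. This gave 83 probe sets for 66 genes, of 15923 probe sets in all and 12783 that carry 1 gene. No measured value entered the choice. A further 4 probe sets with matching names are annotated to several genes and were left out, so that Hspa8, Hspa1b and Hsp90aa1 have no probe set among the members.

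The 4 groups held 4 rats each. SH-DE rats were of the spontaneously hypertensive (SH) strain and breathed diesel engine exhaust (DE) at 2.0 mg/m3 of particles, and SH-air rats were of the same strain in air. WKY-DE rats were Wistar Kyoto (WKY), the normotensive strain set against SH rats, in the same exhaust, and WKY-air rats were of that strain in air. The labels give an age of 12 to 14 weeks and exposures of 6 h a day on 5 days a week for 4 weeks in every group, while the study's methods give a shorter day. The strain difference covers every locus at which these inbred colonies differ, high blood pressure included, and probe sequences were not compared with strain variants. The study's methods call the 4 rats of a group biological replicates.

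Chaperones bind unfolded or partly folded proteins and keep them from clumping until they fold, are handed on or are destroyed. Hsp70 proteins hold short exposed stretches of a client in a cycle driven by ATP. J proteins (the Dnaj genes) bring clients to Hsp70 and start that cycle, Hsp90 takes over later clients such as kinases and receptors, and the ring-shaped chaperonins (CCT in the cytosol, Hspd1 with its lid Hspe1 in mitochondria) enclose a client whole. Small heat shock proteins (the Hspb genes) hold damaged proteins without ATP, and several of them are abundant in heart muscle, where they associate with the contractile filaments. Heat shock factor 1 (Hsf1) raises many of these genes together after heat, toxic metals or oxidant stress by binding repeats of the sequence GAA in alternating directions.

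The sequences shown here are the heat shock elements in the start regions of member genes, because they mark which members carry the textbook binding pattern of Hsf1. RefSeq start regions (rat assembly GRCr8, 250 bases before to 50 after each start) were matched for 55 of the 66 genes by Entrez identifier. The pattern searched on both strands was the heat shock element of 3 units, GAA and its reverse complement TTC in turn with 2 bases of any letter between neighbours, starting with either unit. It occurred in 5 of 55 member genes (9.09%) and in 202 of 27457 start regions in the table (0.736%). The matches, 5′ to 3′ on the strand of the gene with the element in capitals, were as follows.
Hspe1: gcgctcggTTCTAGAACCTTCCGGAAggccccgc
Hspd1: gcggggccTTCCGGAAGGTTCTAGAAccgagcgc
Hsph1: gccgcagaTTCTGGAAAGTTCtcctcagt
Dnaja1: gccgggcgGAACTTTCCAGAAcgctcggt
Cct4: gcgtcgctTTCTGGAAGGTTCgtggaggc
The Hspe1 and Hspd1 lines are the 2 strands of one site, since both genes start from the same stretch of chromosome 9 and run apart. The element lies at chr9:64084262-64084279, from base -65 of Hspe1 and from base -242 of Hspd1. The element of Hsph1 began at base -36 on chromosome 12, and those of Dnaja1 (chromosome 5) and Cct4 (chromosome 14) began at bases 10 and 26, just inside the transcribed part. A shorter pattern of 2 such units in either order, which is contained in the longer one, occurred in 17 of 55 member genes (30.9%) against 15.4% of all start regions, and in 9 of 10 members from a list of genes known to be induced by heat. The 1 without it in the start region given was Hspa1a, the heat-inducible Hsp70, and the longer pattern occurred in 4 of the 10. That region of Hspa1a is chr20:3859506-3859805 on the forward strand. The region of its neighbour Hspa1l, also a member, is chr20:3860174-3860473 on the reverse strand, so that the starts given point toward each other. Other starts of Hspa1a were not searched, so this absence holds only for the start given. Elements outside the 250 bases before and 50 after each start were not searched. Stip1 and Hspb8, whose signals are described later, carry the shorter pattern and are written the same way.
Stip1: ctagtaggTTCCAGAAggcggcgc
Hspb8: agccaggaGAAGTTTCtaggcgcg
A match is a description of letters and not a binding site. Hspb2, Dnajb4 and Dnajc15 were not among the start regions given.

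Levels are MAS5 signals, a linear brightness per probe set scaled to one common mean on every array. Probes differ in how brightly they bind, so brightness is not a ranking of transcripts across genes. Folds are on the scale of log2(signal + 16.1), so the folds of dim probe sets are understated. A call is an adjusted p under 0.05 with an unadjusted p under 0.01 in limma, fitted over all 15866 non-control probe sets. Member probe sets were bright, with a median signal of 671 against 224 for all probe sets with 1 gene. The array medians were 184.6 to 193.5 in SH-DE rats, 173.2 to 197.3 in SH-air rats, 209.1 to 216 in WKY-DE rats and 177.6 to 192.2 in WKY-air rats, so the median probe set was 0.10 higher on the log2 scale in WKY-DE than in WKY-air rats. The ventricular marker list was bright on every array (summed signal 255438 to 471036 for 11 genes). The summed signal of 5 atrial markers was 12787 to 33354 in SH-DE rats, 12059 to 23701 in SH-air rats, 11682 to 41991 in WKY-DE rats and 32242 to 94585 in WKY-air rats, and all 5 markers had an unadjusted p under 0.05, lower, in both SH-air and WKY-DE rats against WKY-air rats. The summed signal of 9 fibroblast markers was 16207 to 19914 in SH-air rats, 18971 to 25523 in WKY-DE rats and 24667 to 33836 in WKY-air rats. These tissue differences run with every comparison against the WKY-air rats. With the mean of the 5 atrial markers as a covariate, an alternative chosen after seeing the data, no member was called in limma in any comparison, and covariate and group cannot be told apart. Calls also fell among all probe sets with 1 gene. Against WKY-air rats they went from 401 to 8 in SH-air, from 239 to 1 in WKY-DE and from 244 to 9 in SH-DE rats. In SH-DE against WKY-DE rats they went from 90 to 67, and averaged over exposures from 516 to 30. The part of the fibroblast markers in the chaperone results was not tested. In such bulk tissue, fewer cells of a type and less RNA per cell cannot be told apart.

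Between the strains in clean air, 6 of 83 member probe sets were called (7.23%), against 3.14% of all probe sets with 1 gene. Dnajb4, Hspa9, Dnajc15 and Hspb8 were higher in SH-air rats, and Dnaja3 and Hspb3 were lower, against 1.31% of all called higher and 1.82% called lower. Of the 6, Hspa9 and Dnajc15, both higher, and Dnaja3, lower, encode proteins of the mitochondrion. The mitochondrial chaperonin genes Hspd1 and Hspe1 had log2 fold changes of 0.30 and 0.06 and were not called. The share of mitochondrial genes among all members was not counted. The median log2 fold change of the members was 0.04, against 0.02 over all probe sets tested.

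**Figure D1:**
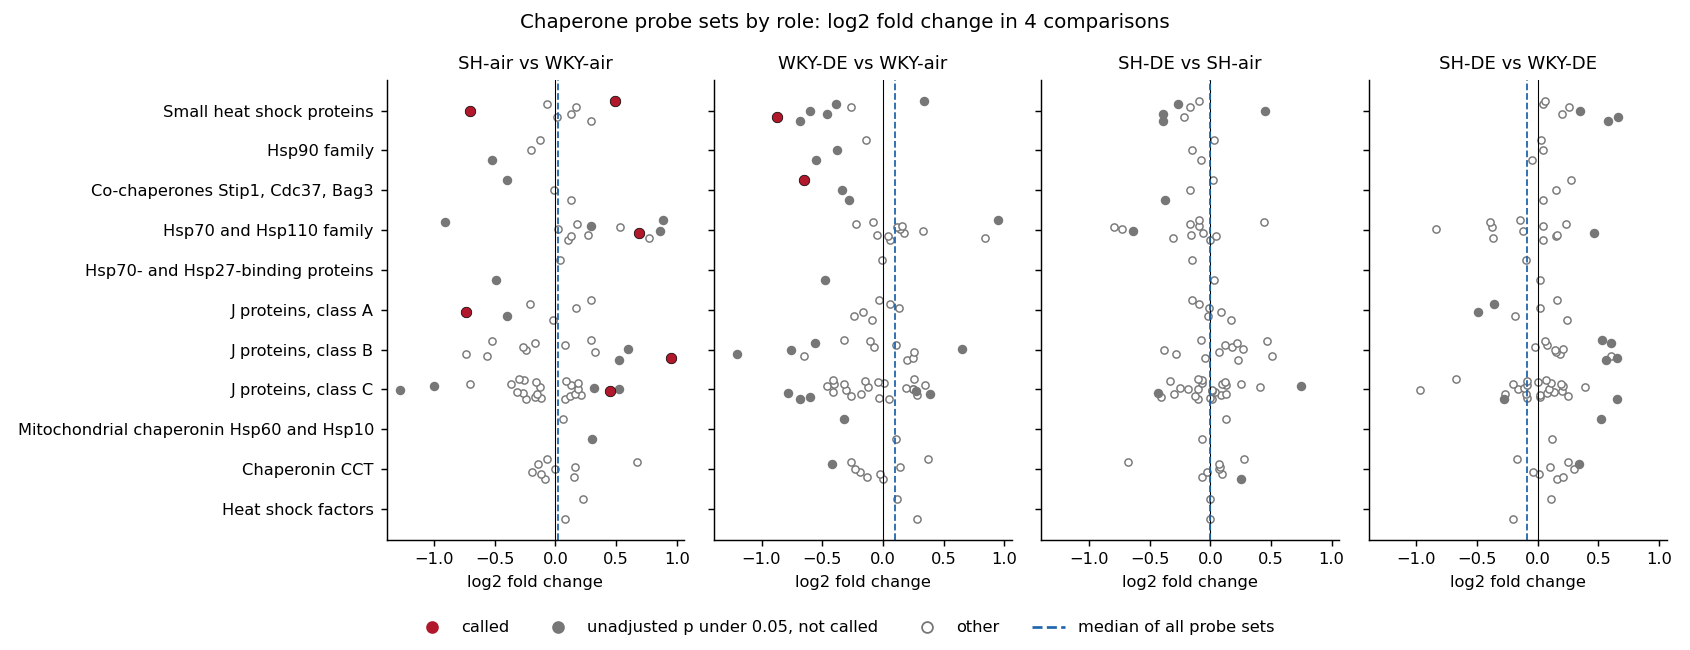
Log2 fold change (horizontal axis) of each of the 83 member probe sets, by role (rows), in 4 comparisons (panels, each the first named group over the second). Red points are called, grey points have an unadjusted p under 0.05 without a call, and the dashed line is the median of all probe sets; called members are 6 in SH-air against WKY-air rats, 2 in WKY-DE against WKY-air rats and 0 in the other panels, and 6 of 7 small heat shock protein probe sets lie below 0 in WKY-DE against WKY-air rats.

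Dnajb4 encodes a cytosolic J protein that works with Hsp70. Its signal (1372722_at, chromosome 2) was 4183, 3531, 4159 and 3466 in the SH-air rats, against 2003, 1845, 2377 and 1730.3 in the WKY-air rats. Every SH-air rat lay above every WKY-air rat, a 1.93-fold difference (log2 fold change 0.95 ± 0.16 SE, adjusted p = 0.00683). In exhaust the signals were 3408, 4785, 2770.1 and 4179 in the SH-DE rats and 2306, 2442, 2604 and 2081 in the WKY-DE rats, again without overlap (log2 fold change 0.65 ± 0.16 SE, adjusted p = 0.0841). Averaged over both exposures, Dnajb4 was 1.74-fold higher in SH rats (log2 fold change 0.80 ± 0.12 SE, adjusted p = 0.00116).

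Dnaja3 encodes a J protein of the mitochondrial matrix and the partner of Hspa9. Its signal (1378392_at, chromosome 10) was 519.9, 546, 721 and 561 in the SH-air rats, against 1081, 956, 965 and 934 in the WKY-air rats. The groups did not overlap, and the SH-air signal was 0.60 of the WKY-air signal (log2 fold change -0.74 ± 0.13 SE, adjusted p = 0.00956). The SH-DE rats had 603, 520.5, 734 and 641 and the WKY-DE rats 916, 882, 759 and 966, so that the same order held in exhaust without overlap (log2 fold change -0.49 ± 0.13 SE, adjusted p = 0.117). Over both exposures the log2 fold change was -0.61 ± 0.09 SE (adjusted p = 0.00198).

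Hspa9, the Hsp70 of mitochondria, has 3 probe sets on chromosome 18. The called one (1370690_at) had signals of 2277, 2110.1, 2459 and 2203 in the SH-air rats, against 1145, 1463, 1694 and 1335 in the WKY-air rats (log2 fold change 0.69 ± 0.17 SE, adjusted p = 0.0428). The brightest (1388851_at) averaged 4332 ± 385 in SH-air rats and 3542 ± 352 in WKY-air rats (SD, n = 4 each), with overlap and a log2 fold change of 0.29 ± 0.12 SE (adjusted p = 0.211). The dimmest (1389930_at) averaged 211 ± 24.0 in SH-air rats and 112 ± 44.6 in WKY-air rats (log2 fold change 0.89 ± 0.27 SE, adjusted p = 0.0961). All 3 were higher in SH-air rats, and only 1370690_at was called, also over both exposures (log2 fold change 0.57 ± 0.12 SE, adjusted p = 0.0141). With the atrial marker covariate the log2 fold change of 1370690_at was 0.10 in air and 0.23 over both exposures, and that of 1389930_at was 0.28 in air.

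Dnajc15 encodes a J protein of the mitochondrial inner membrane that is known in mice and humans as a brake on the respiratory chain. It had 4110.0, 4150.1, 4246 and 4292 in the SH-air rats, against 3232, 3449, 2785 and 2838 in the WKY-air rats (1373064_at, chromosome 15). The SH-air rats were closely grouped and all above the WKY-air rats, a 1.37-fold difference (log2 fold change 0.45 ± 0.11 SE, adjusted p = 0.0312). The value over both exposures was 0.33 ± 0.07 SE on the log2 scale (adjusted p = 0.0225).

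Of the small heat shock proteins, Hspb3, a muscle protein that forms complexes with Hspb2, had 1022, 1225, 1721 and 1264 in the SH-air rats, against 2575, 1876, 1968 and 2020.2 in the WKY-air rats (1387047_at, chromosome 2). The highest SH-air rat lay below the lowest WKY-air rat (log2 fold change -0.70 ± 0.16 SE, adjusted p = 0.03). Hspb8, which works with Bag3 in the removal of damaged filament proteins, had 4450.1, 4578, 4119 and 3908 in the SH-air rats, against 2991, 3708, 2468 and 3093 in the WKY-air rats (1388721_at, chromosome 12; log2 fold change 0.49 ± 0.13 SE, adjusted p = 0.0497). Its dimmer probe set (1387282_at) averaged 2097 ± 551 in SH-air rats and 1825 ± 139 in WKY-air rats (SD, n = 4 each) with overlap, a log2 fold change of 0.17 ± 0.18 SE (adjusted p = 0.674).

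**Figure D2:**
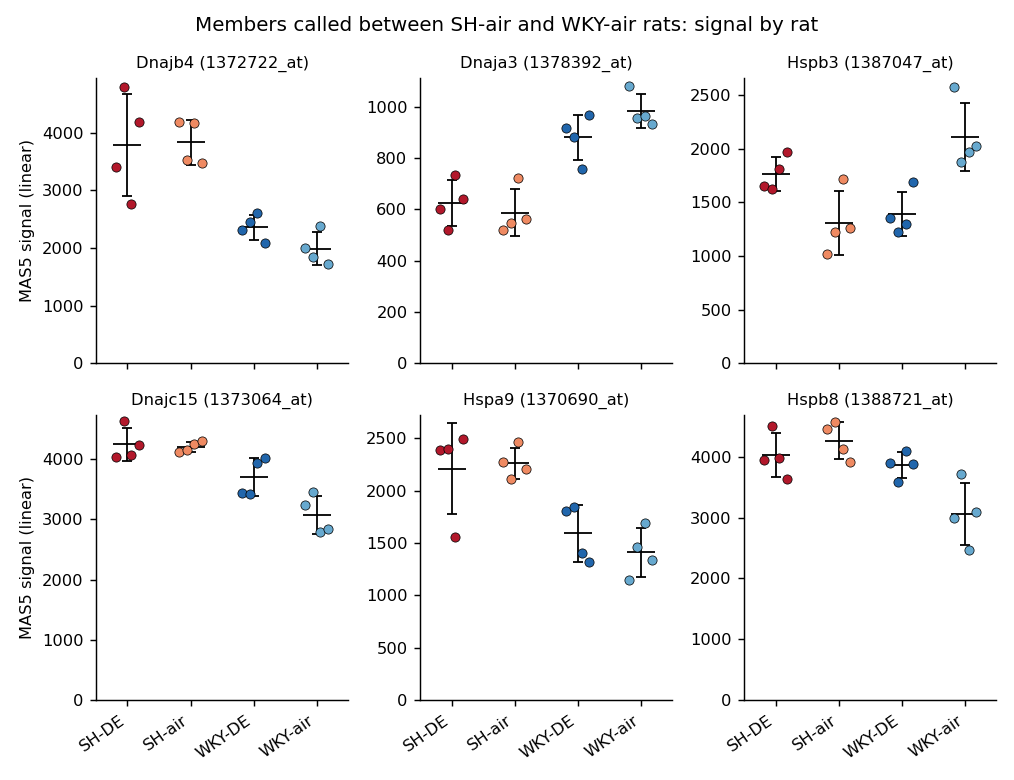
MAS5 signal (vertical axis, linear, from 0) in each rat for the 6 probe sets called between SH-air and WKY-air rats, with the group mean and SD (bars, n = 4). Dnajb4 and Dnaja3 separate both SH groups from both WKY groups, while for Hspb3 the SH-DE mean (1764) lies above and the WKY-DE mean (1390.5) below the mean of its own strain in air (1308 and 2109.7).

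The call for Dnajb4 was kept when any single array was left out, and so was that for Dnaja3. The other 4 were lost when some single arrays were left out, Hspb8 without 15 of the 16, Hspa9 without 10, Dnajc15 without 7 and Hspb3 without 6. For Dnajc15 these were WKY-air replicates 1, 3 and 4 and each of the 4 SH-air rats. For Hspb3 they were WKY-air replicates 1, 3 and 4 and SH-air replicates 1, 2 and 4. With the atrial marker covariate, where none was called, the log2 fold changes were 0.85 for Dnajb4, -0.73 for Dnaja3, 0.54 for Dnajc15, -0.60 for Hspb3 and 0.58 for Hspb8.

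Several uncalled members had low p-values in the same comparison. Hspa1a, the heat-inducible Hsp70, had 843, 1610.0, 2032 and 963 in the SH-air rats, against 693, 679, 719.6 and 700.0 in the WKY-air rats. The WKY-air rats were nearly alike, while 2 of the 4 SH-air rats stood well above the rest (log2 fold change 0.86 ± 0.22 SE, adjusted p = 0.0508). Of the 12 probe sets of the Hsp70 and Hsp110 family, 11 had a positive log2 fold change (median 0.28), with 1 called. At an unadjusted p under 0.05, 4 were higher, namely the 3 of Hspa9 and that of Hspa1a, against 9.14% of all probe sets with 1 gene, and 1 was lower, that of Hspa12b (log2 fold change -0.91 ± 0.33 SE, adjusted p = 0.166 in limma). With 1 probe set per gene, 2 of 10 were higher at that p and 0 were called in limma. Over all probe sets tested 53.2% were positive. Hsp90ab1, the constantly made Hsp90, averaged 4246 ± 548 in SH-air rats and 6055 ± 462 in WKY-air rats on 1375335_at (log2 fold change -0.52 ± 0.14 SE, adjusted p = 0.0683), and 9233 ± 796 and 10574 ± 777 on 1375336_at (log2 fold change -0.20 ± 0.10 SE, adjusted p = 0.337; SD, n = 4 each). The 9 probe sets of the CCT ring had log2 fold changes of -0.19 to 0.67 and no unadjusted p under 0.05, which 17.8% of all probe sets with 1 gene had in either direction, and Hsf1 and Hsf2 had 0.08 and 0.23.

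In WKY rats exhaust was followed by 2 calls among the 83 members (2.41%), against 1.87% of all probe sets with 1 gene, and both were lower: Hspb2 and Stip1. Counted in that direction alone, the background was 0.563%. At an unadjusted p under 0.05, 19 members (22.9%) were lower and 5 (6.02%) higher, against 6.81% lower and 13.6% higher over all probe sets with 1 gene. The member median was -0.09 against 0.10 over all probe sets tested. Bright probe sets ran lower as a class: of 1987 with a mean signal of at least 1000, 344 were lower and 133 higher at that p, beside 12 and 2 of the 34 members in that range. Among probe sets with a mean signal below 200, 221 of 6035 were lower and 854 higher, beside 6 and 1 of 23 members. Between those signals, 1 of 26 members was lower and 2 were higher, against 6.41% and 15.8% of all. The part of the scaling of the arrays in these counts was not tested beyond the quantile normalization, which gave 16 members lower and 6 higher, a median of -0.13 and 1 called. With it the median over all probe sets tested was 0.01, and 79 probe sets with 1 gene were called, against 239 without it. The shares of all probe sets lower and higher at that p under quantile normalization are not given here. The 16 and 6 members under that setting therefore cannot be read against a background.

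Hspb2, a small heat shock protein of heart and skeletal muscle, had 686, 778, 570.3 and 513 in the WKY-DE rats, against 1395, 1136, 841 and 1349 in the WKY-air rats (1370018_at, chromosome 8). The groups did not overlap, and the WKY-DE signal was 0.55 of the WKY-air signal (log2 fold change -0.87 ± 0.19 SE, adjusted p = 0.0398). In SH rats the same probe set had 1179, 789, 1067 and 1011 in the SH-DE rats, against 1024, 969, 1323 and 1404 in the SH-air rats, with overlap (log2 fold change -0.22 ± 0.19 SE, adjusted p = 0.905). The difference between the strains in the response was 0.65 ± 0.27 SE on the log2 scale and was not called (adjusted p = 0.355).

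Stip1 encodes the protein that joins Hsp70 to Hsp90 while a client is passed on. It had 1251, 899, 1100.4 and 1250.1 in the WKY-DE rats, against 1932, 1625, 1669.7 and 1804 in the WKY-air rats (1398877_at, chromosome 1). All WKY-DE rats lay below all WKY-air rats, at 0.64 of their signal (log2 fold change -0.65 ± 0.14 SE, adjusted p = 0.0353). The SH-DE rats had 1384, 1364, 1248 and 1382 and the SH-air rats 1231, 1151, 1668 and 1296 (log2 fold change 0.02 ± 0.14 SE, adjusted p = 0.996). The interaction was 0.67 ± 0.19 SE with an unadjusted p of 0.00372 from limma and an adjusted p of 0.226.

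The 7 probe sets of small heat shock proteins had a median log2 fold change of -0.46 in WKY-DE against WKY-air rats, with 6 negative, 1 called, and 5 lower and 1 higher at an unadjusted p under 0.05, where 1.87% of all probe sets with 1 gene were called and 6.81% were lower and 13.6% higher at that p. Hspb1 (Hsp27) had 3441, 3906, 3688 and 2866 in the WKY-DE rats, against 6071, 6370.1, 4311 and 5628 in the WKY-air rats. The groups were apart, at a log2 fold change of -0.68 ± 0.17 SE (adjusted p = 0.0554). Hspb6 (Hsp20) had 20391, 19641, 26471 and 22170.4 in the WKY-DE rats, against 30384, 26792, 32962 and 25642 in the WKY-air rats, and WKY-DE replicate 3 reached into the WKY-air range (log2 fold change -0.39 ± 0.12 SE, adjusted p = 0.0959). Hspb7, the cardiovascular member of the family, had 15094, 15000.5, 11259 and 16629 in the WKY-DE rats, against 19131, 21964, 17130.2 and 21305 in the WKY-air rats (log2 fold change -0.46 ± 0.17 SE, adjusted p = 0.143). Hspb3 averaged 1390.5 ± 205 in WKY-DE rats and 2109.7 ± 316 in WKY-air rats (SD, n = 4 each; log2 fold change -0.60 ± 0.16 SE, adjusted p = 0.0672).

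The probe sets of Hspb8 went different ways: 1388721_at averaged 3860.4 ± 210.5 in WKY-DE rats and 3065 ± 509 in WKY-air rats (log2 fold change 0.34 ± 0.13 SE, adjusted p = 0.144), and 1387282_at averaged 1525 ± 166 and 1825 ± 139 (log2 fold change -0.26 ± 0.18 SE, adjusted p = 0.427; SD, n = 4 each). Cryab, alpha B-crystallin, belongs to the same protein family without carrying an Hspb symbol. It had 27456, 25785, 35493 and 32549 in the WKY-DE rats, against 54509.7, 39829.9, 42940.4 and 37434 in the WKY-air rats, again without overlap (log2 fold change -0.52 ± 0.14 SE, adjusted p = 0.0613). Ventricular muscle markers moved alongside: 10 of 11 were negative in the same comparison, with a median of -0.35, 5 of them at an unadjusted p under 0.05 and 0 called. Their summed signal was 264807 to 373126 in WKY-DE rats and 345822 to 471036 in WKY-air rats. Their part in the small heat shock protein values was not tested.

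**Figure D3:**
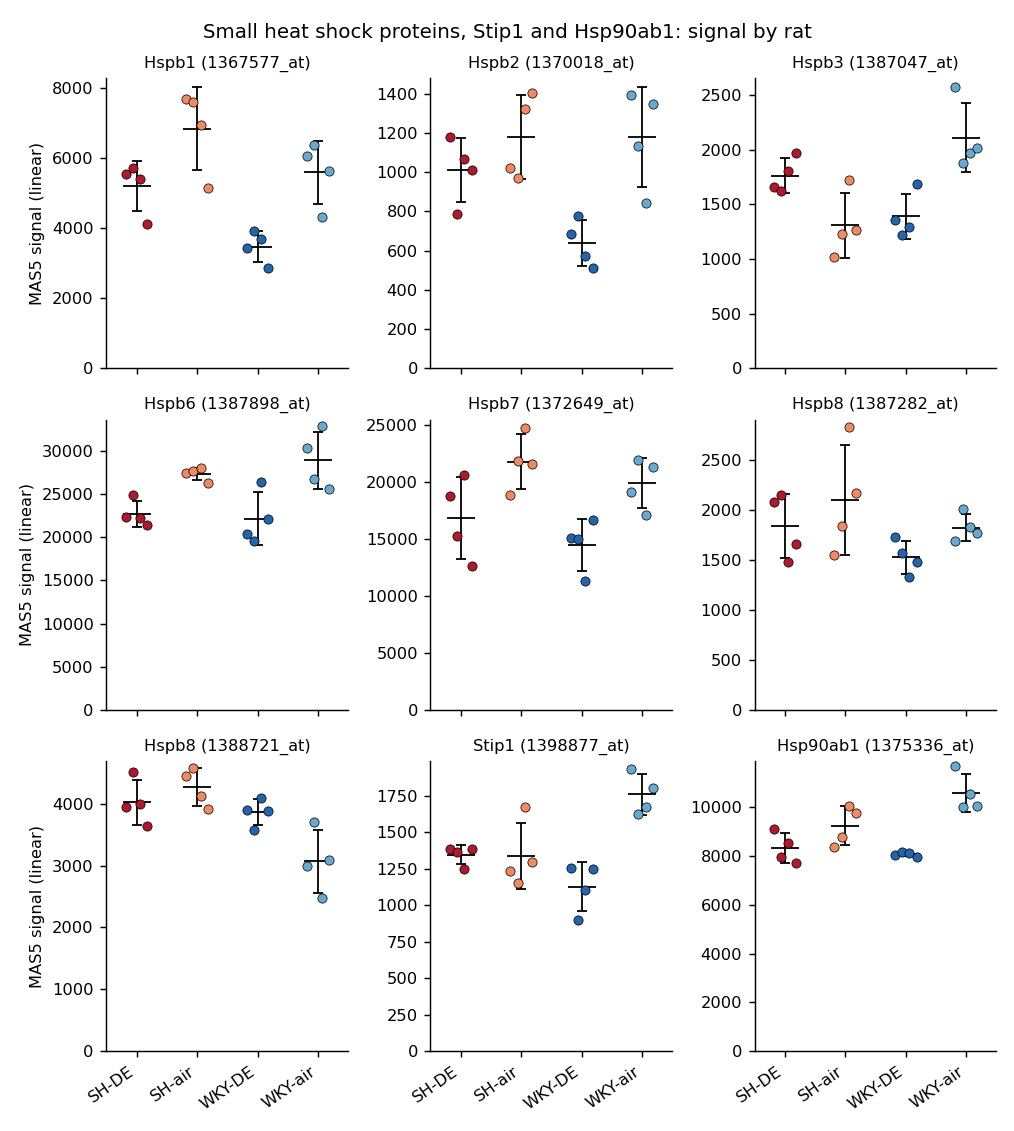
MAS5 signal (vertical axis, linear, from 0) in each rat for the 7 small heat shock protein probe sets, Stip1 and the brighter Hsp90ab1 probe set, with the group mean and SD (bars, n = 4). The WKY-DE rats lie below the WKY-air rats without overlap for Hspb1, Hspb2, Hspb3, Hspb7, Stip1 and Hsp90ab1; Hspb8 on 1388721_at averages 3860.4 in WKY-DE rats and 3065 in WKY-air rats.

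Besides Stip1, no member of the Hsp90 family and no other co-chaperone among the members was called in limma in WKY-DE rats. Hsp90ab1 had 8054, 8168, 8131 and 7964 in the WKY-DE rats, against 11679.6, 10016, 10554 and 10048 in the WKY-air rats (1375336_at, chromosome 9; log2 fold change -0.38 ± 0.10 SE, adjusted p = 0.0628). The 4 WKY-DE rats were nearly alike and below all WKY-air rats. Its other probe set had a log2 fold change of -0.55 ± 0.14 SE (adjusted p = 0.0627), and Hsp90b1, the Hsp90 of the endoplasmic reticulum, one of -0.14 ± 0.12 SE (adjusted p = 0.546). Cdc37, which brings kinases to Hsp90, averaged 2995 ± 243 in WKY-DE rats and 3632 ± 140.1 in WKY-air rats (log2 fold change -0.28 ± 0.12 SE, adjusted p = 0.222), and Bag3, which releases clients from Hsp70, averaged 2941 ± 415 in WKY-DE rats and 3718 ± 468 in WKY-air rats (log2 fold change -0.34 ± 0.14 SE, adjusted p = 0.199; SD, n = 4 each). Of 29 other co-chaperones of Hsp70 and Hsp90 that were measured, 14 had positive and 15 negative values (median -0.01), with 2 higher and 6 lower at an unadjusted p under 0.05. Over all probe sets with 1 gene, 13.6% were higher and 6.81% lower at that p. Among the 29 co-chaperones 1 was called (3.45%, against 1.87% of all probe sets with 1 gene). This was Stub1, a ubiquitin ligase that tags chaperone clients for destruction. It was lower in WKY-DE rats, with 1579, 1869, 1554 and 2092 there and 2580.1, 2554, 2747 and 2565 in WKY-air rats (log2 fold change -0.56 ± 0.12 SE, adjusted p = 0.0357).

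Higher values in WKY-DE rats were fewer. Dnajb9, a J protein of the endoplasmic reticulum, had 1047, 1040.1, 1045 and 826 in the WKY-DE rats, against 442, 740.2, 691 and 657 in the WKY-air rats, without overlap (log2 fold change 0.65 ± 0.18 SE, adjusted p = 0.0717). Its partner Hspa5 (BiP), the main Hsp70 of that compartment, had a log2 fold change of 0.04 (adjusted p = 0.915). None of 26 other genes of endoplasmic reticulum folding and the unfolded protein response was called in limma, with 1 higher and 6 lower at an unadjusted p under 0.05. Over all probe sets with 1 gene, 1.87% were called, and 13.6% were higher and 6.81% lower at that p. Dnajc13, a J protein of endosomes, averaged 561 ± 68.3 in WKY-DE rats and 422 ± 31.4 in WKY-air rats (SD, n = 4 each; log2 fold change 0.39 ± 0.13 SE, adjusted p = 0.109). Hspa9 on its dimmest probe set had 216, 222, 212 and 231 in the WKY-DE rats, against 76.4, 126, 168 and 75.7 in the WKY-air rats (log2 fold change 0.95 ± 0.27 SE, adjusted p = 0.0794), beside 0.17 and 0.16 on its brighter probe sets. No prefoldin gene of 5 and no mitochondrial protease or ClpX family gene of 8 was called in limma in this comparison (at an unadjusted p under 0.05, 1 of 5 lower and 1 of 8 higher, beside the same shares of all probe sets).

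Both calls in WKY-DE rats were lost when any 1 WKY-DE rat, or any 1 WKY-air rat except replicate 3, was left out. With a spread that follows the signal level together with robust moderation in limma, 11 members were called, with Hspb1, Hspb2, Hspb3, Hspb6, both Hsp90ab1 probe sets, Cct5, Dnajc4 and Stip1 lower and Dnajb9 and Hspa9 on 1389930_at higher. The share of all probe sets called under that setting is not given here. The larger count is therefore not a result about the members.

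In SH rats exhaust was followed by 0 calls in limma among the 83 members, as among all probe sets with 1 gene (0%). At an unadjusted p under 0.05, 6 members (7.23%) were lower and 3 (3.61%) higher, against 2.99% and 3.24% of all. The small heat shock proteins again had 6 of 7 negative values, with a median of -0.22 and 3 lower and 1 higher at that p, and the ventricular markers were negative for 11 of 11 (median -0.26). Hspb1 had 5561, 5730.3, 5392 and 4131 in the SH-DE rats, against 7676, 7598, 6959.9 and 5155 in the SH-air rats, with 1 SH-air rat inside the SH-DE range (log2 fold change -0.39 ± 0.17 SE, adjusted p = 0.796). Hspb6 had 22335, 24950.3, 22217 and 21478 in the SH-DE rats, against 27439, 27669.9, 28073 and 26367 in the SH-air rats, without overlap but with a difference of only -0.27 ± 0.12 SE on the log2 scale (adjusted p = 0.796). Hspb3 went the other way, with 1656, 1624, 1809 and 1966 in the SH-DE rats and 1022, 1225, 1721 and 1264 in the SH-air rats (log2 fold change 0.45 ± 0.16 SE, adjusted p = 0.74).

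Hspa1a, which differed widely among the SH-air rats, had 766, 875, 724 and 899 in the SH-DE rats and 829.9, 765, 1083 and 878 in the WKY-DE rats. The SH-DE rats thus had a narrow range, and their log2 fold change against SH-air rats was -0.64 ± 0.22 SE (adjusted p = 0.74), while that of WKY-DE against WKY-air rats was 0.33 ± 0.22 SE (adjusted p = 0.424). Cdc37 averaged 3078 ± 331 in SH-DE rats and 3997 ± 608 in SH-air rats (SD, n = 4 each; log2 fold change -0.37 ± 0.12 SE, adjusted p = 0.74), and its values in both strains were negative.

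The test of whether exhaust acted differently in the 2 strains called 0 of 83 members in limma, against 0.00782% of all probe sets with 1 gene (1 of 12783). At an unadjusted p under 0.05, 9 members (10.8%) had a positive and 4 (4.82%) a negative interaction, against 4.54% and 7.96% of all probe sets with 1 gene, the sign meaning a more positive response in SH rats. The lowest p belonged to Hspb3 (interaction 1.04 ± 0.23 SE on the log2 scale, limma unadjusted p = 3.92e-04, adjusted p = 0.143). Hspa1a had the largest negative one past that p among the brightest probe sets of each gene (-0.97 ± 0.31 SE, adjusted p = 0.256).

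Between the strains in exhaust, 0 of 83 members were called in limma, against 0.704% of all probe sets with 1 gene, with 11 members higher and 3 lower at an unadjusted p under 0.05 (13.3% and 3.61% of members, against 4.73% and 8.53% of all). Bright probe sets ran higher as a class. Of 1987 with a mean signal of at least 1000, 227 were higher and 80 lower at that p. Of the 34 members in that range, 8 were higher and 2 lower. Below 200, 108 of 6035 were higher and 521 lower, beside 2 and 0 of 23 members. Between those signals, 5.65% of all were higher and 10.3% lower, beside 1 and 1 of 26 members. The part of brightness in these counts was not tested. All 7 small heat shock protein probe sets had positive values in SH-DE against WKY-DE rats, from 0.04 to 0.66 on the log2 scale (median 0.26). Values were positive for 39% of all probe sets with 1 gene and for 62% of the 1987 bright ones. Hspb1 had 5561, 5730.3, 5392 and 4131 in the SH-DE rats, against 3441, 3906, 3688 and 2866 in the WKY-DE rats, without overlap (log2 fold change 0.58 ± 0.17 SE, adjusted p = 0.147). Hspe1, the lid of the mitochondrial chaperonin, had 6679.9, 7153, 7041 and 5429 in the SH-DE rats, against 3788, 5239, 4380.1 and 4993 in the WKY-DE rats. The groups did not overlap (log2 fold change 0.52 ± 0.13 SE, adjusted p = 0.0919). Hspd1, which shares its start region and the element printed for both genes, had a value of 0.12 ± 0.11 SE in the same comparison (adjusted p = 0.678).

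Set against the WKY-air rats, the SH-DE rats had 5 calls of 83 (6.02%; 1.91% of all probe sets with 1 gene), namely Dnajb4, Dnajb9 and Dnajc15 higher and Dnaja3 and Hsp90ab1 on 1375335_at lower, where 1% of all were called higher and 0.907% lower. The call for Hsp90ab1 was lost without any 1 of 13 of the 16 arrays, with an offset of 1 and with quantile normalization, that for Dnajc15 without 9 of the 16, Dnajb9 without 5 and Dnaja3 without 4, while that for Dnajb4 was kept without any single array. This comparison, the strain difference in air and the response of WKY rats share the same 4 WKY-air rats. Dnajb9 had log2 fold changes of 0.86, 0.60 and 0.65 in SH-DE, SH-air and WKY-DE rats against those rats. Hsp90ab1 on 1375335_at had -0.59, -0.52 and -0.55, and its signals were 4026, 4077, 4366 and 3554 in SH-DE rats, 3704, 3874, 4862 and 4543 in SH-air rats, 4155, 4046, 3279 and 5282 in WKY-DE rats and 6304, 5424, 6476 and 6016 in WKY-air rats. For this probe set the WKY-air rats lay above every other rat.

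Averaged over both exposures, 8 SH rats against 8 WKY rats, 4 members were called (4.82%, against 4.04% of all probe sets with 1 gene): Dnajb4, Hspa9 on 1370690_at and Dnajc15 higher, and Dnaja3 lower, with 1.78% of all called higher and 2.25% lower. Hspb1 had a log2 fold change of 0.43 ± 0.12 SE (adjusted p = 0.0582) and Hspe1 of 0.29 ± 0.09 SE (adjusted p = 0.106).

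Of 15 listed heat-inducible genes, 11 were measured. In SH-air against WKY-air rats 2 of these 11 were called (Dnajb4 and Hspb8, both higher), in WKY-DE against WKY-air rats 1 (Stip1, lower), and in SH-DE against SH-air rats 0 in limma, where 2 were lower at an unadjusted p under 0.05. Over all probe sets with 1 gene, 3.14%, 1.87% and 0% were called in those comparisons, and 2.99% were lower at that p in SH-DE against SH-air rats. At that p, 4 of the 11 were higher and 1 lower in SH-air against WKY-air rats (9.14% and 8.62% of all). In WKY-DE against WKY-air rats 1 was higher and 4 lower (13.6% and 6.81% of all). The median log2 fold changes of the 11 were 0.29, -0.07 and -0.09 in the 3 comparisons. Averaged over both exposures, 8 of the 11 were higher in SH rats and 0 lower at that p, with a median of 0.22 and 1 called in limma. Of all probe sets with 1 gene, 7.66% were higher and 10.3% lower at that p there, and 4.04% were called. The 5 genes with the long heat shock element had log2 fold changes of 0.00 to 0.30 in SH-air against WKY-air rats, of -0.32 to 0.11 in WKY-DE against WKY-air rats and of -0.17 to 0.13 in SH-DE against SH-air rats, with 0 called in limma and 1, 1 and 0 of them at an unadjusted p under 0.05. Averaged over both exposures the 5 genes had 0.15 to 0.29, with 4 higher at that p and 0 called in limma. Of the 50 member genes with a start region but no long element, 7 were higher and 3 lower at that p there. Hsph1, for example, had 1104, 1273, 1100.5 and 1274 in the SH-DE rats, 1239.6, 1275, 1510.3 and 1348 in the SH-air rats, 954, 974, 976 and 1147 in the WKY-DE rats and 1187, 1359, 1060.5 and 1144 in the WKY-air rats, overlapping in both exposure comparisons.

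**Figure D4:**
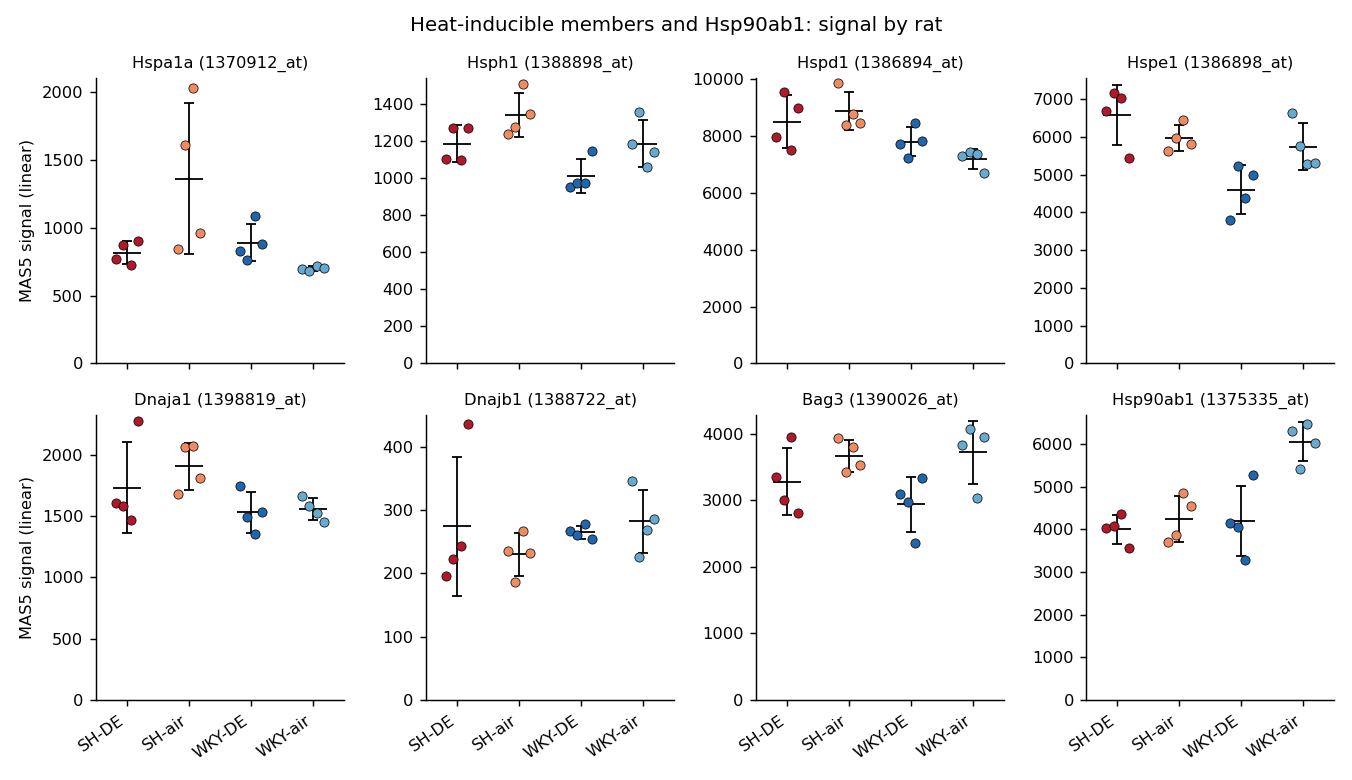
MAS5 signal (vertical axis, linear, from 0) in each rat for 7 members from the heat-inducible list and, as the last panel, Hsp90ab1 on 1375335_at, with the group mean and SD (bars, n = 4). Hspa1a spreads from 843 to 2032 in SH-air rats and from 679 to 719.6 in WKY-air rats, and the WKY-air rats lie above all others for Hsp90ab1.

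No relation of Hspa1a with another inducible gene from rat to rat within groups passed the adjustment. The deviations of Hspa1a from its group means were set against those of the 10 other inducible members over 16 rats, and Pearson r ran from -0.35 for Bag3 to 0.43 for Stip1, positive in 9 of 10. Spearman rho ran from -0.49 to 0.38, with a lowest permutation p of 0.0477 for Bag3 (0.477 after adjustment over the 10 pairs), and without the 2 rats farthest from the median of Hspa1a, both SH-air, r was -0.52 for Bag3 and 0.02 for Stip1. The lowest permutation p was 0.0619 (100000 resamples within groups, two-sided), and the lowest after Benjamini-Hochberg adjustment over the 10 pairs was 0.604. With 16 rats, weaker relations could not be seen.

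Of the 16 member genes with several probe sets, all probe sets had the same sign for 8 in SH-air against WKY-air rats, for 7 in WKY-DE against WKY-air rats, for 9 in SH-DE against SH-air rats and for 10 in SH-DE against WKY-DE rats. Single-probe-set values for the remaining genes therefore carry that uncertainty.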

How the data were processed

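Cardiac RNA of 16 rats (4 groups of 4) was hybridised to Affymetrix Rat 230A arrays. Per the labels and the study's methods, the authors computed the deposited intensity values, one MAS5 signal per probe set and array, with default settings and each array scaled to a common trimmed mean. That the trimmed means are alike was checked on the values. Here 16.1, the level that 10% of values did not reach, was added to each signal, log2 taken, and group means of all 16 arrays fitted in limma 3.58.1 under R 4.3.3, with empirical Bayes moderation (12 residual degrees of freedom, 2.68 prior) and Benjamini-Hochberg adjustment over 15866 non-control probe sets. A call was an adjusted p under 0.05 with p under 0.01. The number of arrays limits the precision (median SE of a strain difference in air 0.21 on the log2 scale). The limma fit and its calls were tested on simulated arrays with independent noise and known changes in the WKY-DE group. The other steps were not tested in this way. At most 12.5% of an array's values lay below the offset.

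Genes were named from GEO's platform annotation, and all 83 member symbols were looked up by Entrez identifier with 0 changed. The 312 probe sets with several genes and the 2771 without annotation were fitted and not named. Probe sets of multigene families such as Hspa1a and Hspa1b may share targets. Members, lists and comparisons were chosen with earlier results of these data known. Genes selected by rule are every called member, the 4 members of lowest p in each direction in both strain comparisons at 1 exposure, both exhaust comparisons and the interaction, the brightest of each role and the heat-inducible members, with a gene shown by its brightest probe set and the others where they disagree. Not every gene so selected is described. Among those without values of their own in the text are Dnajb12, Dnaja4, Tcp1 and Hspbp1. Percentages of all calls are over the 12783 probe sets with 1 gene. Alternatives were other offsets, quantile normalization, a filter on dim probe sets, an intensity trend, a replicate block, fits of only the groups compared, other thresholds, 1 probe set per gene and each array left out. Not analysed here were scanner files and the authors' own lists.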

Additional observations from a re-analysis of the deposited data

Results flagged for a closer look

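Among 37 named member probe sets, 148 groups of 4 rats were examined for 1 rat standing apart from the other 3 by Dixon's 95% critical value for 4 values, which chance alone passes in about 1 group in 20, and 11 groups did. In WKY-DE rats, replicate 4 was the lowest for Hspa5 (3946, the others 5365 to 5477), Dnajb9 (826, the others 1040.1 to 1047) and Dnajc10 (713, the others 828 to 831), which all encode proteins of the endoplasmic reticulum, and the highest for Hsph1 (1147, the others 954 to 976). In SH-DE rats, replicate 3 was the lowest for Cct5 (4067, the others 5125 to 5304), Hspa9 on 1370690_at (1558, the others 2389 to 2494) and Stip1 (1248, the others 1364 to 1384). It was the highest for Dnajc22 (77.2, the others 8.62 to 14.5). Dnajc22 was also highest in SH-air replicate 4 (73.1, the others 9.83 to 15.0), and these dim signals lie near the offset. In WKY-air rats, Dnajc8 was lowest in replicate 2 (1296, the others 1582 to 1618) and Hspd1 in replicate 4 (6689.6, the others 7317 to 7426). The cause of these single-rat values was not tested.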

How the results depend on the processing

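The counts of called members moved with the settings, and the direction of no called member turned. Of 421 values of called members under an alternative, 288 kept the call and 133 lost it. Without the dimmest 40% of probe sets, 11 members were called in SH-air against WKY-air rats, 9 in WKY-DE against WKY-air rats, 2 in SH-DE against WKY-DE rats, 9 in SH-DE against WKY-air rats (median 0.03) and 8 averaged over exposures. With an intensity trend and robust moderation these counts were 10, 11, 3, 10 and 11. The shares of all probe sets called without the dim probe sets and with the trend are not given here. These counts therefore cannot be read against a background. The offset at the 25th percentile gave 7 in WKY-DE against WKY-air rats and 7 averaged over exposures, and quantile normalization gave 1 in WKY-DE against WKY-air rats. Fits of only the groups compared gave 1, 0 and 0 for SH-air, WKY-DE and SH-DE rats against WKY-air rats. They estimate the spread from 8 arrays, and the part of this in the lower counts was not tested. For the interaction and the average, which use all groups, this setting was not run. An adjusted p under 0.01 left 2 in SH-air and 0 in WKY-DE and in SH-DE rats against WKY-air rats, and 2 averaged over exposures. With 1 probe set per gene the median in WKY-DE rats was -0.04.

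The replicate numbers in the labels name rats and do not pair them: the deviations of same-numbered arrays correlated at -0.096 to 0.053, those of other pairs at -0.091 to 0.124, and 2 of 16 arrays correlated best with their own number. With the replicate block, 2 members were called in SH-air, 0 in WKY-DE and 2 in SH-DE rats against WKY-air rats.

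Leaving out 1 array at a time gave 2 to 6 calls in SH-air against WKY-air rats, 0 to 4 in WKY-DE against WKY-air rats, 0 to 1 in SH-DE against WKY-DE rats (the 1 without SH-DE replicate 3, median 0.13 against a range of 0.04 to 0.13), 1 to 8 in SH-DE against WKY-air rats (the 8 without SH-DE replicate 3) and 3 to 6 averaged over exposures. Added after seeing the data, leaving out WKY-DE replicate 3 and SH-DE replicate 3 together gave 0 in WKY-DE and 8 in SH-DE rats against WKY-air rats and 1 in SH-DE against WKY-DE rats. The mean of 5 atrial markers as a covariate, also added later, left 0 members called in SH-air, WKY-DE and SH-DE rats against WKY-air rats and averaged over exposures, with medians of -0.06, -0.16, -0.11 and 0.00, and 0.12 for the interaction. Among all probe sets with 1 gene it left 8, 1, 9 and 30 called in those 4 comparisons, against 401, 239, 244 and 516 without it. That covariate runs with the groups, so covariate and group cannot be told apart. Averaged over exposures, Dnajb4 and Dnaja3 lost their calls in limma under this covariate and under no other setting run, with log2 fold changes of 0.74 and -0.61 there, and Hspa9 (0.23 there) lost it under the covariate and at an adjusted p under 0.01. In SH-DE against SH-air rats no setting run gave a call. Folds of dim probe sets depend most on the offset, and 23 members had a mean signal below 200.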

Other observations

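Of 8 member genes whose proteins work in the endoplasmic reticulum, 5 had their lowest WKY-DE signal in replicate 4 (Hspa5, Dnajb9, Dnajb11, Dnajc3 and Dnajc10). Among 26 other genes of folding and the unfolded protein response in that compartment, 7 were lowest in replicate 4 and 11 in replicate 3. Pdia6, a disulfide isomerase, had 2038, 2131, 1992 and 1437 in the WKY-DE rats, and Calr, calreticulin, had 2286, 2279.8, 1844 and 2327. These counts were chosen after seeing the values of Hspa5, Dnajb9 and Dnajc10.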
